A study of Mus musculus with 14 samples.

Results

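The levels of 10 genes of mast cell proteases and receptors were followed in mouse colon. The 10 genes were found by name among 55889 genes in the table of mice without DSS and among 54721 genes in the table of mice after DSS. They comprised the chymases *Cma1*, *Mcpt1*, *Mcpt2* and *Mcpt4*, the tryptases *Tpsab1* and *Tpsb2*, the carboxypeptidase *Cpa3*, and the receptor genes *Kit*, *Fcer1a* and *Ms4a2*. They were chosen by name with earlier results of the same mice known, and selected on the read counts of *Cma1* without DSS, which were higher in the knockout with no overlap of the genotypes. Values of the 10 genes by genotype without DSS are therefore given as a description, with no test.

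RNA of 14 mice from 2 experiments was sequenced. One experiment compared 4 WT with 4 *MiR-29ab1-/-* mice that received no DSS, and the other compared 3 mice of each genotype that had drunk 3.5% DSS for 3 days. DSS is dextran sulfate sodium, a chemical that injures the colonic epithelium when it is drunk. The study states that a WT sample and a *MiR-29ab1-/-* sample were left out, and does not say from which experiment. The mice were 8 to 12 weeks old, of the C57BL/6N strain by the labels, and the knockout was a germline deletion of the miR-29a and miR-29b-1 cluster, carried by every cell of the body, with WT littermates as controls. The mature microRNAs were not measured by these libraries. *Lncpint*, used to check the labels, lay at 93.6 to 201 CPM, the counts scaled to library size, in the *MiR-29ab1-/-* mice without DSS against 0.417 to 1.28 CPM in the WT mice, and at 29.4 to 60.6 against 0.251 to 0.585 CPM after DSS.

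The libraries held 14231157 to 18185020 reads on genes without DSS and 20076719 to 23153149 after DSS, and a gene with 3 reads, used as the limit of detection, lay at 0.165 to 0.215 CPM and at 0.125 to 0.159 CPM, respectively. Small intestinal crypts are the tissue in the labels, whereas the study describes colon. The 5 colon epithelial markers summed to 1574 to 4601 CPM without DSS and the 5 small intestinal markers to 3.87 to 12.4 CPM, which goes with colon. Of the 6 smooth muscle genes, *Myh11*, *Actg2*, *Des* and *Acta2* had 0 to 7 reads per mouse without DSS, *Cnn1* 0 to 4 and *Tagln* 22 to 39. The 6 summed to 2.22 to 2.77 CPM. The libraries thus held little of the muscle of the gut wall, which goes with the crypts of the label rather than with whole colon. One *MiR-29ab1-/-* mouse after DSS stood apart from the other two: its 4 neutrophil markers (*S100a8*, *S100a9*, *Retnlg* and *Cxcr2*) summed to 2.62 CPM, and in the other two *S100a8* alone reached 9.31 and 13.9 CPM. For the genes compared after DSS, values without this mouse are given where the fold change or the count moved by over 1.5 times, and for each of the 10 genes that was tested.

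Mast cells are tissue-resident immune cells that store proteases bound to serglycin proteoglycan in granules and release them when IgE on the Fc epsilon receptor meets its antigen. Stem cell factor, made by *Kitl*, keeps them alive through the receptor KIT. Mast cells of the intestinal epithelium, called mucosal, are known for the chymases of *Mcpt1* and *Mcpt2*, and those of connective tissue for the proteases of *Cma1*, *Mcpt4*, *Cpa3*, *Tpsb2* and *Tpsab1*.

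The deleted microRNAs share 1 seed, the bases that pair with target messages. The same miR-29b-3p sequence is also encoded on chromosome 1 (*Mir29b-2*), outside the deletion. So is miR-29c-3p (*Mir29c*), which has the same seed. Both deleted microRNAs are shown because the match of a message to this seed is what a direct target of miR-29 would carry. Capitals mark the seed (bases 2 to 8), and the sequences are from RefSeq on GRCm38.p6, minus strand, at chr6:31062673-31062694 and chr6:31063025-31063047.
miR-29a-3p: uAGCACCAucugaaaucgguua
miR-29b-3p: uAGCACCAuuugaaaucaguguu
The site complementary to this seed, TGGTGCT, and its longer form TGGTGCTA were searched on the sense strand of the annotated 3′ untranslated regions (GENCODE vM21, GRCm38). Of 21037 genes with such a region, 13.8% held TGGTGCT and 3.0% held TGGTGCTA. Of the 10 mast cell genes, 0 held either, including *Kit*, whose region of 2177 bases is the longest here, and *Cma1*, with 201 to 203 bases. The absence of these letters says nothing about other ways in which a message may depend on miR-29.

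The chymase genes stand together on chromosome 14. On GRCm38, *Cma1* lies at chr14:55941451-55944675 on the minus strand, *Mcpt1* at chr14:56017971-56020384 and *Mcpt2* at chr14:56042041-56044642 on the plus strand, and *Mcpt4* at chr14:56059629-56062313 on the minus strand. All are protein-coding genes. The coding sequence of *Cma1* was the most distant of these, with 61.4% identity to *Mcpt1*, 61.6% to *Mcpt2* and 63.9% to *Mcpt4*, and no run of identical bases longer than 27 in the transcripts compared. *Mcpt1* and *Mcpt2* were 81.2% identical, with a longest shared run of 49 bases, and *Mcpt1* and *Mcpt4* were 86.7% identical. Reads within such runs can be assigned to either gene, and the handling of these reads is not given in the sources used here.

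The promoters of *Cma1*, *Mcpt1* and *Mcpt4* are shown because these neighbours had different levels and different genotype values below. Each runs from 250 bases before to 50 bases after the RefSeq start, on GRCm38.p6: *Cma1* at chr14:55944626-55944925 on the minus strand, *Mcpt1* at chr14:56017714-56018013 on the plus strand and *Mcpt4* at chr14:56062261-56062560 on the minus strand. Capitals mark matches to AGATAA and TGATAA, forms of the GATA factor motif, and to the E-boxes CATGTG and CACGTG, searched on both strands. The GATA motifs share the letters GATAA, and CACGTG is its own reverse complement.
Cma1: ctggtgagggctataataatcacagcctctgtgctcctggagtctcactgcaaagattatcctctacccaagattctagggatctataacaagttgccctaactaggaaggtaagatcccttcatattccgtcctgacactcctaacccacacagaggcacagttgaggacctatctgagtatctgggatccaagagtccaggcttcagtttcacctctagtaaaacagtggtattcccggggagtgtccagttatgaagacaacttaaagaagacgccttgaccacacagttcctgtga
Mcpt1: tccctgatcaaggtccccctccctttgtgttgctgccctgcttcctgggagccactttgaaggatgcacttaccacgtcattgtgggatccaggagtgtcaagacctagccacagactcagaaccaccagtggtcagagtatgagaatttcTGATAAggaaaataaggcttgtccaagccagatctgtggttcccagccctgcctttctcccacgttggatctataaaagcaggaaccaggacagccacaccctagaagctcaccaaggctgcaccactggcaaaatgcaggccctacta
Mcpt4: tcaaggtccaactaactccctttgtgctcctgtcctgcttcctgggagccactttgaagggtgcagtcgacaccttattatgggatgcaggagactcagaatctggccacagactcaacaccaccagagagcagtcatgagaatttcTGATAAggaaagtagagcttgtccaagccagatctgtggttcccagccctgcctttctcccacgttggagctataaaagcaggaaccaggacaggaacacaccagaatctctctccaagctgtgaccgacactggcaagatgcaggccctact
*Mcpt1* and *Mcpt4* each held 1 TGATAA, starting 99 and 103 bases before the start site, and their promoters were 80.6% identical. The *Cma1* promoter held 0 matches to the 4 motifs and was 47.7% identical to that of *Mcpt1*. Other forms of the GATA motif were not searched, so this does not show that *Cma1* lacks one. Of the 7 mast cell genes with an entry, 5 held AGATAA or TGATAA (*Mcpt1*, *Mcpt4*, *Cpa3*, *Fcer1a* and *Ms4a2*), against 18.6% of 32851 promoters of the same length. *Ms4a2* held 3 of them. CATGTG was found in 1 of the 7, *Fcer1a*, against 14.2% of all promoters, and CACGTG in 0 of the 7, against 7.15%. These matches are a description of letters and not of bound factors.

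Levels differed widely among the 10 genes. Compared per kilobase of gene length, so that long and short genes can be set side by side, *Kit* was highest without DSS, with a mean of 20.6 CPM per kb over 8 mice and a range of 14.04 to 25.7. *Mcpt1* followed with 7.09 (2.04 to 14.5), *Cma1* with 4.09 (1.16 to 9.93), *Mcpt2* with 2.31 (0.630 to 4.66) and *Tpsb2* with 0.554 (0.241 to 0.835) CPM per kb. The ranges of each of these genes and its neighbour in this order overlapped. The remaining 5, *Fcer1a* (0.189), *Cpa3* (0.177), *Mcpt4* (0.154), *Ms4a2* (0.0762) and *Tpsab1* (0.00734 CPM per kb), each overlapped its neighbour in this order too, but *Tpsab1*, at 0 to 0.0303 CPM per kb, overlapped *Ms4a2* only. After DSS, the order began with *Kit* (4.84) and *Mcpt1* (4.82 CPM per kb), and *Mcpt2* (1.40) stood before *Cma1* (1.11). The 2 experiments were tabulated separately, so DSS and experiment cannot be told apart and no test was made between them.

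The genes that most strictly define mast cells were close to the detection limit. *Cpa3*, the carboxypeptidase of mast cell granules, had 1 to 10 reads per mouse without DSS and 1 to 7 after DSS. *Fcer1a* and *Ms4a2*, the alpha and beta chains of the IgE receptor, had 1 to 9 and 0 to 12 reads without DSS. *Tpsab1*, a tryptase gene from which C57BL/6 mice are known to make no protein, had a single read in 2 of 8 mice without DSS and 0 reads in 6 mice after DSS. *Kit*, in contrast, lay at 125 to 229 CPM without DSS. *Kit* is also known from interstitial cells of Cajal and from secretory cells at the base of colonic crypts, and the cells that gave these reads were not identified. The 4 markers of interstitial cells of Cajal (*Ano1*, *Etv1*, *Edn3* and *Prkcq*) summed to 123 to 197 CPM without DSS, nearly all of it from *Ano1* (mean 155 CPM), with *Edn3* at 8.39, *Prkcq* at 1.86 and *Etv1* at 1.47 CPM, and the 6 smooth muscle markers summed to 2.22 to 2.77 CPM. Genes of the related basophil were also at or near 0: *Prss34* had 0 reads in all 14 mice. The name mast cell is therefore used here for the genes and not for the cells in which these reads arose. The plot of all 10 genes in each mouse shows this separation into abundant and scarce genes.

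**Figure D1:**
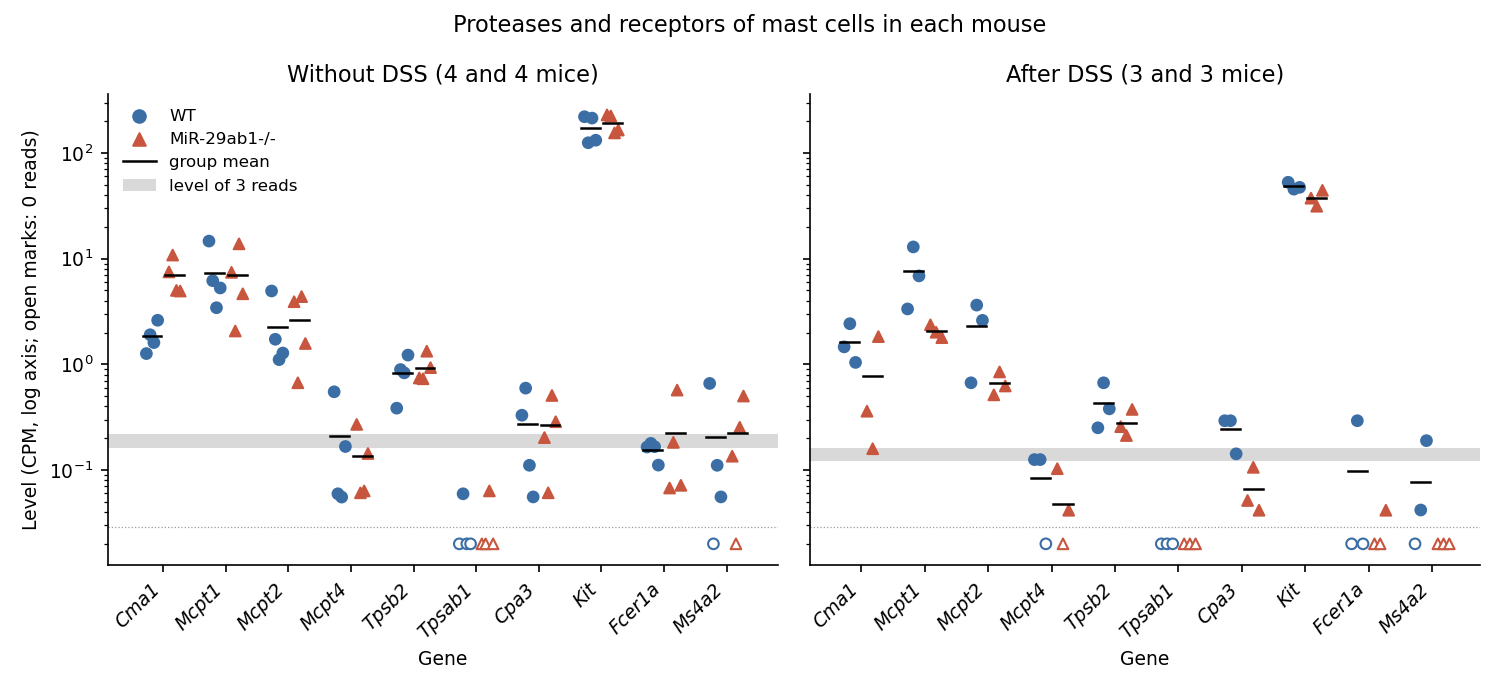
Level of each of the 10 genes in each mouse (CPM, log axis) without DSS on the left and after DSS on the right, with blue circles for WT mice, red triangles for *MiR-29ab1-/-* mice, black lines for group means and open marks for 0 reads. *Cma1* without DSS spanned 1.26 to 2.61 CPM in the WT group and 4.94 to 10.8 CPM in the knockout group, and *Tpsab1*, *Mcpt4*, *Fcer1a* and *Ms4a2* lay around or under the grey band of 3 reads.

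The first comparison set the genotypes side by side without DSS. *Cma1*, the gene of mast cell protease 5, had 23, 32, 29 and 47 reads in WT mice 1 to 4, which are 1.26, 1.91, 1.61 and 2.61 CPM. In *MiR-29ab1-/-* mice 1 to 4 it had 111, 178, 79 and 69 reads, which are 7.49, 10.8, 5.01 and 4.94 CPM. Every *MiR-29ab1-/-* mouse was above every WT mouse. The means were 1.85 ± 0.574 CPM in WT and 7.06 ± 2.77 CPM in *MiR-29ab1-/-* mice (SD, n = 4 each), a log2 fold change of 1.93 (SE 0.33) or 3.82-fold. This is the difference by which the gene was chosen, and the genotypes were higher without overlap in 1.11% of the 15441 genes tested. In RNA from many cells together, more cells of a type and more RNA per cell cannot be told apart.

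The mucosal chymases did not separate by genotype without DSS. *Mcpt1*, the gene of mast cell protease 1, lay at 14.7, 6.19, 3.43 and 5.28 CPM in WT mice 1 to 4 and at 7.42, 2.07, 13.8 and 4.65 CPM in *MiR-29ab1-/-* mice 1 to 4. WT mouse 1 and *MiR-29ab1-/-* mouse 3 were the highest, and the genotypes overlapped throughout. *Mcpt2*, the gene of mast cell protease 2, lay at 4.95, 1.73, 1.11 and 1.28 CPM in WT mice and at 3.91, 0.669, 4.37 and 1.57 CPM in *MiR-29ab1-/-* mice. The log2 fold changes were -0.08 (SE 0.61) for *Mcpt1* and 0.21 (SE 0.64) for *Mcpt2*, each smaller than its error.

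Of the other proteases, *Tpsb2*, the gene of the tryptase mast cell protease 6, lay at 0.385 to 1.22 CPM in the WT and 0.730 to 1.33 CPM in the *MiR-29ab1-/-* mice, with a log2 fold change of 0.16 (SE 0.40). Its gene model differed between the tables: chr17:25366305-25369098 on the plus strand without DSS and chr17:25366550-25368094 after DSS. Its values are not comparable across them. *Mcpt4*, the connective tissue chymase of mast cell protease 4, had 1 to 10 reads in WT and 1 to 4 in *MiR-29ab1-/-* mice. Among the receptors, *Kit* lay at 221, 125, 214 and 132 CPM in WT mice 1 to 4 and at 229, 224, 155 and 165 CPM in *MiR-29ab1-/-* mice, with overlap and a log2 fold change of 0.16 (SE 0.22). *Fcer1a* had 2 to 3 reads in WT and 1 to 9 in *MiR-29ab1-/-* mice, and *Ms4a2* 0 to 12 and 0 to 7. Filtering on low counts kept 5 of the 10 genes here: *Cma1*, *Mcpt1*, *Mcpt2*, *Tpsb2* and *Kit*.

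The second comparison set the genotypes side by side after DSS, and was not used to choose the genes. The mucosal chymases and *Kit* had lower values in *MiR-29ab1-/-* mice, but none of the 4 genes with enough reads passed the adjusted test. *Mcpt1* lay at 3.34, 12.9 and 6.87 CPM in the WT mice and at 2.37, 2.01 and 1.79 CPM in the *MiR-29ab1-/-* mice, in each case in the order of the table's columns. Every *MiR-29ab1-/-* mouse was below every WT mouse, and the *MiR-29ab1-/-* mice were close to each other. The means were 7.71 ± 4.84 CPM and 2.06 ± 0.291 CPM (SD, n = 3 each), 3.75-fold apart, with a log2 fold change of -1.91 (SE 0.46). Across all 14908 genes tested, edgeR's quasi-likelihood test gave an adjusted p of 0.646. The adjusted p ranged from 0.0112, with DESeq2, to 1.0 over 10 alternatives. Without the *MiR-29ab1-/-* mouse low in neutrophil markers the log2 fold change was -1.81 (SE 0.57, adjusted p = 0.193).

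*Mcpt2* lay at 0.669, 3.64 and 2.61 CPM in the WT mice and at 0.514, 0.847 and 0.624 CPM in the *MiR-29ab1-/-* mice. One WT mouse, the one lowest in *Mcpt1*, lay within the range of the *MiR-29ab1-/-* mice, so the genotypes overlapped. The log2 fold change was -1.79 (SE 0.59), with an adjusted p of 0.646 by edgeR (0.119 to 1.0 over the alternatives), and without the same mouse -1.75 (SE 0.73, adjusted p = 0.287).

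*Kit* lay at 52.9, 45.5 and 47.4 CPM in the WT mice and at 37.4, 31.4 and 44.3 CPM in the *MiR-29ab1-/-* mice. The genotypes did not overlap, by a margin of 44.3 against 45.5 CPM. The means were 48.6 ± 3.83 and 37.7 ± 6.49 CPM (SD, n = 3 each), with a log2 fold change of -0.37 (SE 0.14) and an adjusted p of 0.651 by edgeR (0.112 to 1.0 over the alternatives). Without the same mouse it was -0.50 (SE 0.12), with the lowest of these adjusted p values. The markers of interstitial cells of Cajal summed to 63.9 to 151 CPM in the WT and 42.0 to 107 CPM in the *MiR-29ab1-/-* mice, with overlap and again mostly from *Ano1* (mean 73.7 CPM), and their part in the values of *Kit* was not tested.

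*Cma1* after DSS did not show the order it had without DSS. It lay at 1.46, 2.42 and 1.04 CPM in the WT mice (35, 58 and 22 reads) and at 0.360, 0.159 and 1.83 CPM in the *MiR-29ab1-/-* mice (7, 3 and 44 reads). The *MiR-29ab1-/-* mouse with 44 reads is the one with few reads on neutrophil markers, and it was above 2 of the 3 WT mice. The log2 fold change was -1.02 (SE 0.76), with an adjusted p of 0.752 by edgeR. Without that mouse it was -2.64 (SE 0.60), with an adjusted p of 0.0957, over a *MiR-29ab1-/-* group of 2 mice.

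The scarce genes after DSS were compared with a two-sided exact permutation test, which cannot go below p = 0.1 with 3 mice against 3. *Cpa3* had 7, 7 and 3 reads in the WT mice and 1, 2 and 1 in the *MiR-29ab1-/-* mice, without overlap of their CPM (exact p = 0.1). *Tpsb2* had 6, 16 and 8 reads against 5, 4 and 9 (exact p = 0.4). *Mcpt4* had 0 to 3 reads in both genotypes together (exact p = 0.6). *Ms4a2* had 0, 1 and 4 reads in the WT mice and 0 in each *MiR-29ab1-/-* mouse (exact p = 0.4). *Fcer1a* had 7 reads in 1 WT mouse, 1 read in 1 *MiR-29ab1-/-* mouse and 0 in the other 4 (exact p = 1.0). At these counts a difference in the last 3 was not detectable.

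Counted together, 0 of the 10 genes passed an adjusted p of 0.05 after DSS, where 0.0134% of all genes tested did. With an unadjusted p under 0.05, 3 of the 4 genes that passed the filter were lower in *MiR-29ab1-/-* mice (*Mcpt1*, *Mcpt2* and *Kit*), with a background of 3.25% of all genes. Without overlap of the genotypes, 2 of the 4 were lower (*Mcpt1* and *Kit*), with a background of 6.28%. The median log2 fold change of the 4 was -1.41 and that of all genes tested -0.00499. The count of 3 depended on single mice. It was 1 (*Mcpt1*) without the *MiR-29ab1-/-* mouse highest in *Mcpt1*, and 4 without the *MiR-29ab1-/-* mouse low in neutrophil markers. The background moved with it: 485 of all genes were lower at this threshold with all mice kept. Without the first of these mice 250 were lower, and without the second 1242. The neutrophil markers themselves summed to 0.376 to 4.88 CPM in WT and 2.62 to 35.3 CPM in *MiR-29ab1-/-* mice. Of the 3 with enough reads, 1 (*S100a8*) had an unadjusted p under 0.05. Without the *MiR-29ab1-/-* mouse lowest in them, 4 of 4 had it, and the sum of that mouse, 2.62 CPM, lay within the WT range. That mouse was singled out by these same markers, so the rise to 4 is no separate evidence. The part of neutrophils in these differences was not tested.

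The genotype difference was then compared between the experiments, as the log2 fold change after DSS minus that without DSS, in 1 model over the genes of both tables. It was -2.95 (SE 0.82) for *Cma1*, -1.83 (SE 0.89) for *Mcpt1*, -2.01 (SE 0.99) for *Mcpt2* and -0.53 (SE 0.29) for *Kit*. It is not given for *Tpsb2*, whose gene model differs between the tables. Without the *MiR-29ab1-/-* mouse low in neutrophil markers it was -4.56 (SE 0.69) for *Cma1*. One side of each value is the contrast by which the genes were chosen, so no test is given. For *Cma1* the mean of the WT mice was 1.85 CPM without DSS and 1.64 CPM after DSS, and that of the *MiR-29ab1-/-* mice 7.06 CPM and 0.783 CPM, or 0.259 CPM without that mouse. The plot of genotype differences sets both experiments side by side.

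**Figure D2:**
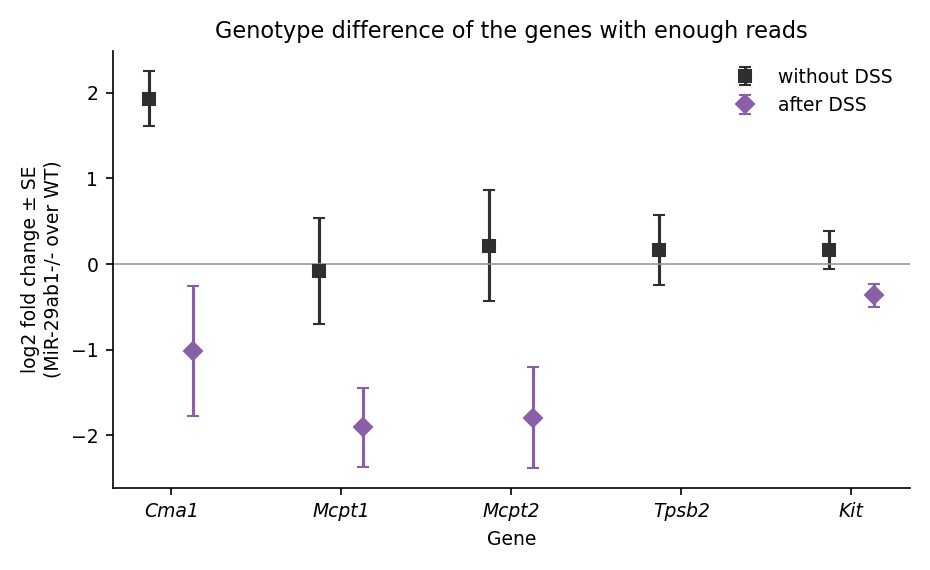
Log2 fold change of *MiR-29ab1-/-* over WT mice with its SE for the genes that passed the filter, without DSS (black squares, n = 4 per genotype) and after DSS (purple diamonds, n = 3 per genotype, *Tpsb2* not fitted). *Cma1* stands at 1.93 without DSS and -1.02 after DSS, and *Mcpt1* at -0.08 and -1.91.

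The neighbours of *Cma1* on chromosome 14 were read in the same mice. In chromosome order the locus holds *Cma1*, *Cma2*, *Mcpt1*, *Mcpt9*, *Mcpt2*, *Mcpt4*, *Mcpt8* and *Ctsg*, the last of which makes cathepsin G. Without DSS, *Cma2* had 15, 10, 7 and 1 reads in WT mice 1 to 4 and 6, 3, 20 and 3 in *MiR-29ab1-/-* mice, and *Mcpt9* 2 to 18 and 3 to 7 reads. The separation of the genotypes at *Cma1* without DSS was thus not seen at *Cma2*, its nearest protease gene in this list. After DSS, *Cma2* had 2, 40 and 9 reads in the WT mice and 0 in each *MiR-29ab1-/-* mouse. *Mcpt9* had 2, 18 and 7 reads in WT mice and 1, 0 and 3 in *MiR-29ab1-/-* mice. *Cma2* and *Mcpt9* were 98.1% identical in coding sequence, with a shared run of 196 bases, so their separate counts are uncertain. Both were too scarce to be tested, and *Cma2* was named after its values were seen. *Mcpt8*, a basophil protease, had 0 to 2 reads in any mouse, and *Ctsg* had 0 reads in all 14.

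**Figure D3:**
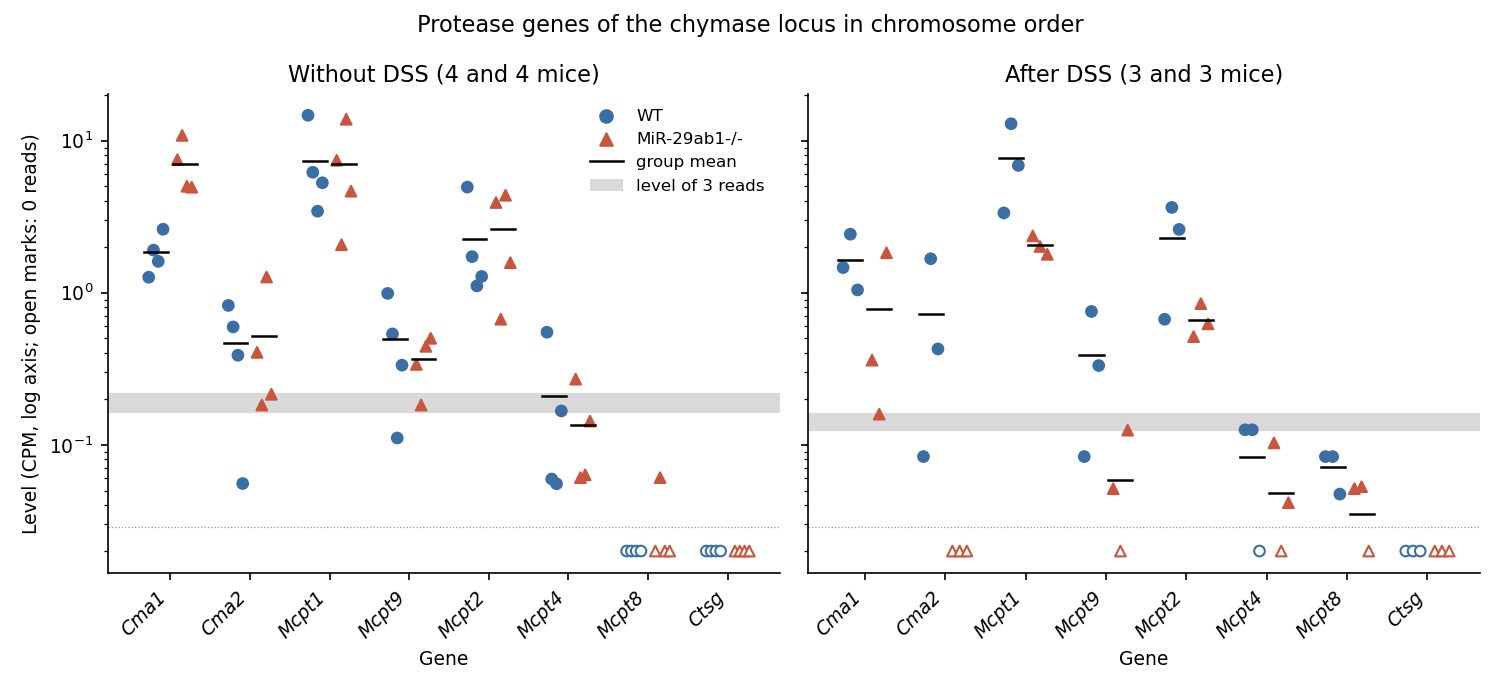
Level of the protease genes of the chymase locus in each mouse (CPM, log axis), ordered as on chromosome 14, without DSS on the left and after DSS on the right, with blue circles for WT mice, red triangles for *MiR-29ab1-/-* mice, black lines for group means and open marks for 0 reads. Without DSS the genotypes are apart at *Cma1* and overlap at *Cma2*, *Mcpt1*, *Mcpt9*, *Mcpt2* and *Mcpt4*, and after DSS *Cma2* has 0 reads in the 3 *MiR-29ab1-/-* mice.

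Mice of 1 group differed from each other in the mucosal chymases, and these differences were compared between genes. From each mouse's log2 CPM the mean of its group was subtracted, which removes both genotype and experiment. Over 14 mice, Pearson's r between *Mcpt1* and *Mcpt2* was 0.941 and Spearman's rho 0.943. Without the 2 mice farthest from the median in *Mcpt1*, r was 0.922, and it was 0.968 in the mice without DSS and 0.884 in those after DSS. For *Mcpt1* and *Cma1* r was -0.22 and rho -0.292, with r at -0.651 without DSS and 0.0852 after DSS, and -0.0222 without the 2 farthest mice. For *Mcpt1* and *Kit* r was -0.188 and rho -0.0637, with r at -0.123 without DSS and -0.465 after DSS. For *Cma1* and *Kit* r was 0.255 and rho 0.0901, with r at -0.0306 and 0.773. The 4 pairs were chosen after the values were seen, so these are descriptions with no test, and *Mcpt1* and *Mcpt2* share runs of identical bases as given above.

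**Figure D4:**
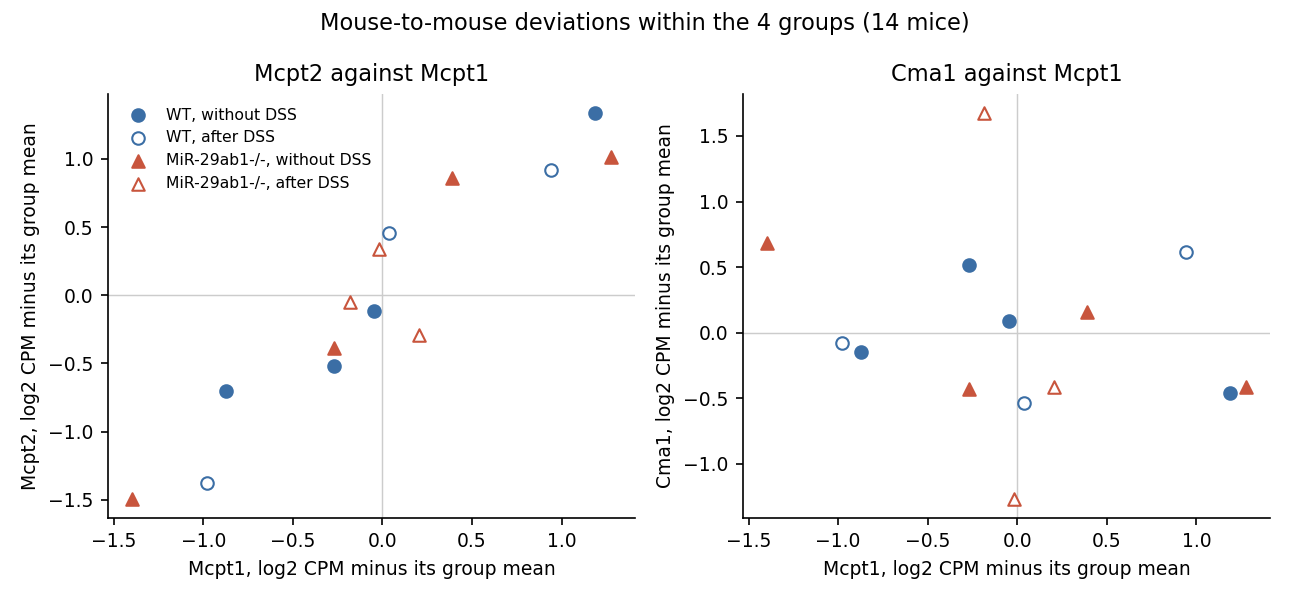
Deviation of each of 14 mice from its group mean in log2 CPM, for *Mcpt2* against *Mcpt1* on the left and *Cma1* against *Mcpt1* on the right, with circles for WT, triangles for *MiR-29ab1-/-*, filled marks without DSS and open marks after DSS. The left panel rises along the diagonal (r = 0.941) and the right panel does not (r = -0.22).

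The genes whose deviations were most like those of *Cma1*, among 14245 genes and 14 mice, were *Gad2* (r = 0.889), *Aldh4a1* (0.878), *Med26* (0.872), *Hoxa9* (0.872) and *Tmem170* (0.871). None of these is a mast cell gene in the lists used here. These are the highest of many correlations over few mice and are given with no test. *Cpa3* had too few reads for the same comparison.

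Other genes of mast cell function were counted in 7 lists. Of their 40 genes outside the 10, 22 had enough reads without DSS and 23 after DSS, and 0 passed the adjusted test by edgeR in either experiment. With an unadjusted p under 0.05, the knockout was higher at 5 and lower at 0 without DSS, with backgrounds of 2.09% and 1.58% of all genes. These were *Tpsg1*, *Alox5*, *Ptgs1*, *Lyn* and *Plcg2*, named after their values were seen. The cells that gave the reads of these genes were not identified. After DSS, 2 were higher (*Lat* and *Lcp2*, likewise named after their values were seen) and 0 lower, with backgrounds of 3.99% and 3.25%. Without the *MiR-29ab1-/-* mouse low in neutrophil markers, 4 were higher (*Srgn*, *Syk*, *Lat* and *Lcp2*), 2 were lower (*Ndst2* and *Kitl*) and 0 passed the adjusted test, where 1288 of all genes were higher and 1242 lower at the same threshold. The median log2 fold change over the genes tested was 0.23 without DSS and 0.16 after DSS, and that of all genes -0.00163 and -0.00499.

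Among proteases, *Tpsg1*, a membrane-anchored tryptase next to *Tpsb2* on chromosome 17, lay at 90.6, 126, 128 and 128 CPM in WT mice 1 to 4 and at 168, 156, 129 and 145 CPM in *MiR-29ab1-/-* mice without DSS. The genotypes did not overlap, with the highest WT mouse at 127.8 CPM and the lowest *MiR-29ab1-/-* mouse at 128.7 CPM, and the log2 fold change was 0.34 (SE 0.13; adjusted p = 1.0 by edgeR). After DSS they overlapped (60.7 to 87.8 and 56.7 to 74.6 CPM; log2 fold change -0.19, SE 0.16).

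Among the enzymes of lipid mediators, 5 of 5 had a positive log2 fold change without DSS and 3 of 5 after DSS. The cells in which these reads arose were not identified. *Ptgs1*, which makes cyclooxygenase 1, lay at 2.75, 3.21, 4.71 and 3.504 CPM in WT mice 1 to 4 and at 5.47, 6.44, 6.46 and 8.45 CPM in *MiR-29ab1-/-* mice without DSS. The genotypes did not overlap, with a log2 fold change of 0.92 (SE 0.23; adjusted p = 0.879 by edgeR). After DSS *Ptgs1* lay at 2.55 to 5.69 CPM in WT and 2.62 to 4.28 CPM in *MiR-29ab1-/-* mice. *Alox5*, the 5-lipoxygenase of leukotriene synthesis, had a log2 fold change of 0.54 (SE 0.23; adjusted p = 1.0) without DSS and 0.24 (SE 0.36) after DSS. *Hpgds*, which makes prostaglandin D2, had 0.13 (SE 0.18) and -0.12 (SE 0.26).

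Among the signalling genes of the Fc epsilon receptor, *Syk* and *Lyn*, its kinases, had the highest levels. *Syk* lay at a mean of 82.4 CPM without DSS (log2 fold change 0.04, SE 0.29) and 85.7 CPM after DSS (0.23, SE 0.15). *Lyn* had a log2 fold change of 0.33 (SE 0.14; adjusted p = 1.0) without DSS and 0.26 (SE 0.15) after DSS. *Lat* and *Lcp2*, adaptors that T cells also use, had log2 fold changes of 1.28 (SE 0.48; adjusted p = 0.655) and 0.96 (SE 0.38; adjusted p = 0.655) after DSS. Without the mouse low in neutrophil markers, which lay within the WT range in both, these were 1.57 (SE 0.44; adjusted p = 0.156) and 1.23 (SE 0.34; adjusted p = 0.142). The 4 T cell markers after DSS had a median log2 fold change of 0.45, with *Cd247* at an unadjusted p under 0.05, and their part in these values was not tested.

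For granule contents, *Srgn*, the serglycin core that holds the proteases, had a log2 fold change of -0.00 (SE 0.58) without DSS and 0.58 (SE 0.33) after DSS, and *Ndst2*, which sulfates heparin, had -0.04 (SE 0.10) and -0.20 (SE 0.12). Without the mouse low in neutrophil markers, log2 fold changes after DSS were 0.81 (SE 0.30) for *Srgn*, -0.31 (SE 0.12) for *Ndst2*, 0.35 (SE 0.13) for *Syk*, 0.13 (SE 0.14) for *Lyn*, 0.08 (SE 0.41) for *Alox5*, -0.38 (SE 0.41) for *Ptgs1*, -0.32 (SE 0.16) for *Tpsg1*, -0.01 (SE 0.37) for *Mitf* and -0.28 (SE 0.12) for *Kitl*. Of the growth factors, *Kitl* lay at a mean of 101 CPM without DSS (log2 fold change 0.07, SE 0.20) and 93.8 CPM after DSS (-0.13, SE 0.14), and *Tgfb1* had 0.20 (SE 0.26) and -0.22 (SE 0.18). Of the transcription factors, *Mitf* had 0.26 (SE 0.33) and 0.15 (SE 0.33), and *Gata2* was too scarce to be tested, with a mean of 0.415 CPM without DSS. Of 5 other receptors 0 had enough reads: *Il1rl1*, the receptor of interleukin 33, had a mean of 0.291 CPM and *Adora3* of 0.204 CPM without DSS, *Cd200r3* had 0.195 CPM after DSS, and *Mrgprb1* and *Mrgprb2* had 0 reads in all mice. The plot of the lists gives the fold changes of all genes with enough reads.

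**Figure D5:**
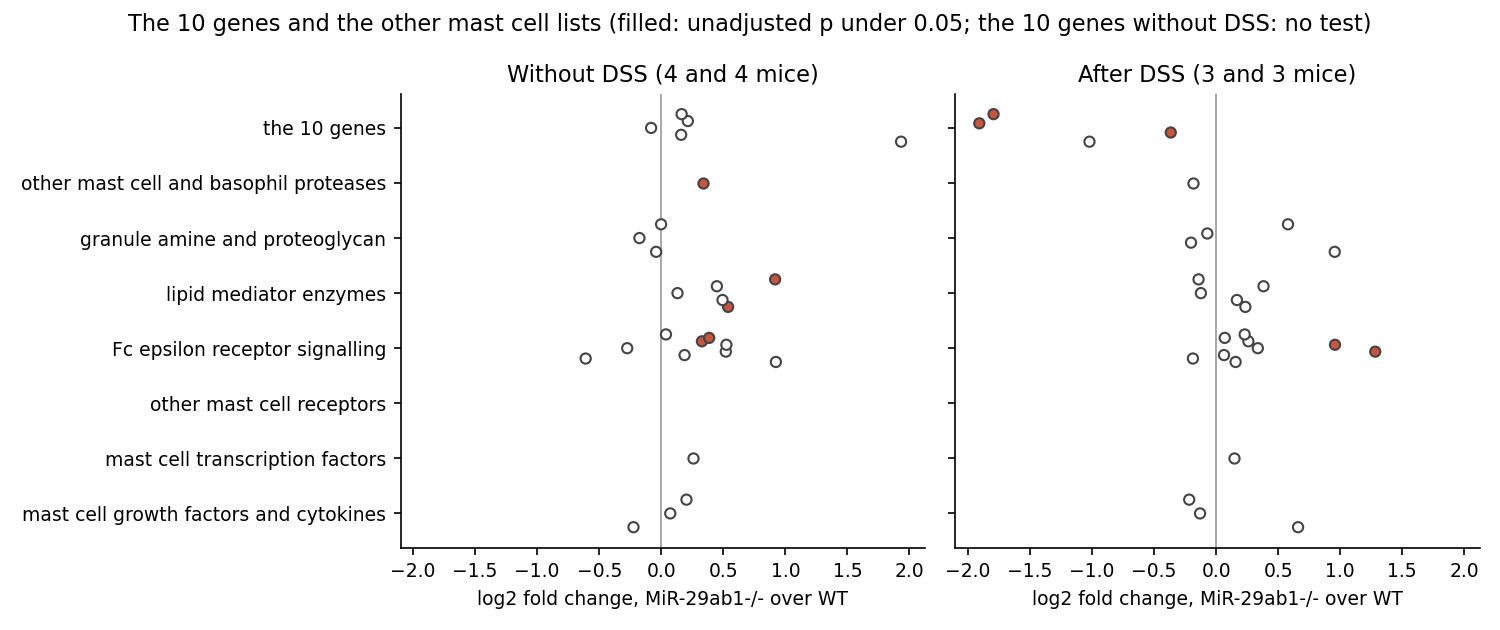
Log2 fold change of *MiR-29ab1-/-* over WT mice for each gene with enough reads, by list, without DSS on the left and after DSS on the right, with filled points at an unadjusted p under 0.05 (the 10 genes were not tested without DSS). *Cma1* at 1.93 lies far right of the other points without DSS, and after DSS *Mcpt1* at -1.91, *Mcpt2* at -1.79 and *Cma1* at -1.02 lie left of all other genes shown.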

How the data were processed

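Total RNA was extracted with TRIzol and sequenced from directional libraries. The authors deposited a table per experiment with raw, unnormalized read counts of each gene. The submitters' processing notes name HISAT2 and DESeq2, and the counting tool, its strand setting and the build are not given in the sources used here. Of the identifiers, 55230 of 55889 and 54495 of 54721 are in GENCODE vM21 (GRCm38), with equal start and end in 99.47% and 98.33% of these. The deposited FPKM values (14 columns) and the authors' group means, fold changes and p-values were not used. The columns after DSS name a genotype but could not be tied to numbered mice.

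The 10 genes and the lists were chosen with earlier results of these data known. Library sizes were scaled by TMM, low counts were filtered (filterByExpr, minimum count 10, total 15), and genotypes were compared within each table by edgeR 4.0.16 (robust quasi-likelihood test, Benjamini-Hochberg adjustment over all genes tested, 15441 without and 14908 after DSS) in R 4.3.3. The code was tested on simulated counts. CPM are counts over the scaled library total. Genes below the filter were compared by a two-sided exact permutation test (SciPy 1.17.1). Correlations were computed on log2 CPM (prior count 2). The genes named were all 10, from each list those past the adjusted threshold and the 2 highest in mean CPM, and the 5 non-member genes most like *Cma1* and *Cpa3*. Genes that make up a small count, *Cma2* and *Mcpt9* were named in addition, after their values were seen. Alternatives were DESeq2 1.42.0, RLE scaling, no filter, 1 model for all 14 mice, a block by mouse number without DSS, and leaving out each mouse. Fits of the other lists and of the difference between experiments without 1 knockout mouse were added after seeing the data. Coding sequences and promoters were aligned with Biopython. Precision is limited by counting at these depths and by 3 or 4 mice per group. Lists of markers of other cell types are given under the observations.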

Additional observations from a re-analysis of the deposited data

Results flagged for a closer look

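Among the 10 genes and the 2 groups of 4 mice, 20 sets of 4 values were screened for a mouse far from the other 3, and 4 were found. Chance marks about 1 in 20 sets of normally distributed values by this rule, a rate that cannot be assumed for the sets with single reads. *Mcpt2* lay at 4.95 CPM in WT mouse 1 without DSS, against 1.11 to 1.73 CPM in the other 3 WT mice. The same mouse had the highest *Ms4a2* of its group, 0.660 CPM or 12 reads, against 0 to 2 reads in the others, and also the highest *Mcpt1* and *Mcpt4*. *Tpsab1* lay at 0.0595 CPM in 1 WT mouse and at 0.0634 CPM in 1 *MiR-29ab1-/-* mouse without DSS, each a single read against 0 reads in the other 3 mice. Groups of 3 mice, after DSS, were not screened.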

How the results depend on the processing

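The log2 fold changes of the 4 genes tested after DSS and of *Cma1* without DSS kept their direction under each alternative run. *Cma1* without DSS ranged from 1.66 to 2.15 when each mouse was left out. The other 4 without DSS, each smaller than its error, ranged from -0.64 to 0.50 (*Mcpt1*), -0.14 to 0.94 (*Mcpt2*), -0.07 to 0.41 (*Tpsb2*) and 0.03 to 0.31 (*Kit*). After DSS the same leave-out gave -2.64 to -0.56 for *Cma1*, -2.27 to -1.32 for *Mcpt1*, -2.23 to -1.30 for *Mcpt2* and -0.50 to -0.25 for *Kit*. With DESeq2, *Mcpt1* after DSS passed the threshold (log2 fold change -1.90, adjusted p = 0.0112), so 1 of the 10 genes did in place of 0, and 44 genes in all were higher and 15 lower in place of 2 and 0. Without the filter on low counts these were 32 and 14, and at an unadjusted p under 0.05 the genes higher and lower were 1037 and 782 after DSS in place of 595 and 485, and 703 and 396 without DSS in place of 322 and 244. When each mouse was left out after DSS, genes past the adjusted threshold ranged from 0 to 54 higher and 0 to 39 lower, genes at an unadjusted p under 0.05 from 268 to 1288 higher and 215 to 1242 lower, and the 10 genes lower at that p from 1 to 4. The highest counts came without the *MiR-29ab1-/-* mouse low in neutrophil markers, and the lowest counts at the unadjusted p over all genes without the *MiR-29ab1-/-* mouse at 2.01 CPM of *Mcpt1*. The difference of *Cma1* between the experiments was -4.56 without the *MiR-29ab1-/-* mouse low in neutrophil markers, in place of -2.95. That fit was chosen after seeing the data. The cause was not tested.

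With mouse number as a block without DSS, *Cma1* had a log2 fold change of 1.90, and 337 genes were higher and 206 lower at an unadjusted p under 0.05. Mice of equal number correlated at -0.0303, 0.149, -0.194 and -0.127, and those of unequal number at -0.277 to 0.262. No pairing by number was seen, but so few mice cannot exclude one. After DSS no block by mouse number was fitted, because the columns carry no number that matches a mouse. Depth limits *Cpa3*, *Mcpt4*, *Fcer1a*, *Ms4a2* and *Tpsab1*, which had 0 to 12 reads per mouse and were below the filter in both tables.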

Other observations

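Markers of other cell types were read in the same mice. Of 51 marker genes in 12 lists, 29 had enough reads without DSS and 30 after DSS, and 0 passed the adjusted test by edgeR in either experiment. At an unadjusted p under 0.05, 1 was higher in *MiR-29ab1-/-* mice without DSS and 0 lower, with backgrounds of 2.09% and 1.58% of all genes. It was *Siglecf*, an eosinophil receptor (log2 fold change 0.62, SE 0.27) and the only 1 of the 4 eosinophil markers with enough reads. After DSS, 3 were higher (*S100a8*, *Cd247* and *Col3a1*) and 0 lower, with backgrounds of 3.99% and 3.25%. These genes were named after their values were seen, and the cells that gave their reads were not identified. *Col3a1*, a collagen of fibroblasts, lay at 4.97 to 6.83 CPM in WT and 7.57 to 17.1 CPM in *MiR-29ab1-/-* mice after DSS, without overlap (log2 fold change 1.24, SE 0.31, adjusted p = 0.646). Without the *MiR-29ab1-/-* mouse low in neutrophil markers, 33 markers had enough reads. At an unadjusted p under 0.05, 6 were higher (*S100a8*, *S100a9*, *Retnlg*, *Cxcr2*, *Cd247* and *Col3a1*) and 1 lower (*Hoxd13*), where 1288 of all genes were higher and 1242 lower. The first 4 of these 6 are the markers by which that mouse was singled out. *Col3a1* passed the adjusted test (log2 fold change 1.53, SE 0.19, adjusted p = 0.024), with 2 *MiR-29ab1-/-* mice left.

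The summed markers overlapped between the genotypes in each list and experiment except for the 3 basophil genes after DSS, which summed to 0.293 to 0.460 CPM in WT and 0.0416 to 0.212 CPM in *MiR-29ab1-/-* mice, near the level of 3 reads. Without DSS the summed macrophage markers lay at 3.28 to 9.13 CPM in WT and 2.55 to 6.58 CPM in *MiR-29ab1-/-* mice, those of B and plasma cells at 5.88 to 9.70 and 3.04 to 31.0 CPM, and those of endothelium at 2.44 to 4.34 and 2.28 to 3.58 CPM.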
